A study of Homo sapiens with 2 samples.

Results

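The epidermal growth factor (EGF) receptor family and its ligands were examined in ALDH+ and ALDH- cells of RMG1, an established line of ovarian clear cell carcinoma. The 10 genes were the receptors EGFR, ERBB2, ERBB3 and ERBB4 and the ligands EGF, AREG, EREG, HBEGF, TGFA and BTC, out of 27267 gene names with a probe on the array. They were chosen by name, taking every gene probe that carried one of these names on both arrays, which gave 18 probes. RMG1 cells grown in serum were sorted by the ALDEFLUOR assay, in which a fluorescent substrate is retained by cells with aldehyde dehydrogenase (ALDH) activity, to compare cancer stem-like cells (ALDH+) with the remaining cells (ALDH-). No other treatment was given, and both populations came from the same line. Their RNA was hybridized together to 2 two-color arrays of 60-base probes on 1 slide. On the first array ALDH+ cells were labeled with Cy5 and ALDH- cells with Cy3, and on the second the dyes were exchanged. The extracts were identical on the 2 arrays, which made each population 1 sample. No test was possible, and the SD given below is that of 2 arrays and is technical only. The sample labels name RMG1 as the line, whereas the methods name AMOC2 for this RNA.

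The receptors of this family are tyrosine kinases of the cell surface that work in pairs. Ligand binding opens the extracellular part of a receptor for pairing, and the kinases then phosphorylate the partner's tail, to which adaptors of the RAS-ERK and PI3 kinase pathways bind. ERBB2 has no known ligand of its own, ERBB3 has little kinase activity and binds PI3 kinase when paired with ERBB2, and ERBB4 binds neuregulins. The ligands are made as membrane-spanning precursors and are released by ADAM proteases at the cell surface. In epithelial cells, including those of carcinomas, these receptors drive growth and survival, and ERBB2 and EGFR are known targets of cancer drugs.

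The values of a gene depend on which stretch of its RNA a probe reads, so the probes on which the results turn are given here, 5′ to 3′ on the sense strand, in lower case with no part marked. Coordinates are those of hg19. For probes near the 3′ end of a transcript or in the end of a short isoform, the first 30 bases are shown. EGFR was read by a probe near the 3′ end of the full-length transcript (A_23_P215790, chr7:55274841-55274900), by a probe of a short isoform without the kinase (A_33_P3351944, chr7:55224558-55224617), and by a probe within the code for the extracellular region (A_33_P3351955, chr7:55231446-55231505). All 3 are on the plus strand, and each was designed from a different transcript record.
EGFR, 3′ end, first 30 bases: tatcaaggaagaaatggttcagaaaatatt
EGFR, short isoform, first 30 bases: ggaaatcagtgttttagagagagaactttt
EGFR, extracellular region: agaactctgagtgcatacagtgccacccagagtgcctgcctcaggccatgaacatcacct
ERBB2 was read near the 3′ end of its transcript (A_23_P89249, chr17:37884829-37884888, plus strand). ERBB3 was read near the 3′ end of the full-length transcript (A_23_P349416, chr12:56496160-56496219, plus strand) and at the end of a short isoform (A_33_P3211569, chr12:56479217-56479276, plus strand).
ERBB2, 3′ end, first 30 bases: aatgggtgttgtatggggaggcaagtgtgg
ERBB3, 3′ end, first 30 bases: gctcttgactacttggaactaggctcttat
ERBB3, short isoform, first 30 bases: ttttctaatttcaaagtacagtgtaccgga
Among the ligands, the TGFA probe that gave a signal lies in the code for the membrane-spanning stretch of the precursor (A_33_P3408203, chr2:70683472-70683531, minus strand). AREG had a probe in the code for the tail of its precursor, up to the stop codon (A_33_P3419190, chr4:75318293-75318352, plus strand).
TGFA, membrane-spanning stretch: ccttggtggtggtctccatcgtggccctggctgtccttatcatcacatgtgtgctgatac
AREG, tail of the precursor: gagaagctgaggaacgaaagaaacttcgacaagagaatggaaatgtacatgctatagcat

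Of the 10 genes, 6 were measured, that is, had a probe well above background on both arrays for ALDH+ or for ALDH- cells. These were EGFR, ERBB2, ERBB3, AREG, TGFA and BTC, with 11 of the 18 probes. By the brightest probe of each gene, the 3 receptors were lower in ALDH+ cells on both arrays, by 1.25-fold to 1.48-fold in the mean. For EGFR this held for 1 of its 3 measured probes, and the mean over its probes was 0.04. The 3 ligands had means above 0, of which AREG and TGFA were above 0 on both arrays. No member passed 2-fold or 1.5-fold. Among all 13720 measured genes, 0.211% were more than 2-fold higher and 0.707% more than 2-fold lower in ALDH+ cells, and 1.5% and 4.61% passed 1.5-fold in these directions. The median log2 ratio of the 6 members was -0.09, against -0.003 over all measured genes. It was -0.52 over the 3 receptors and 0.19 over the 3 ligands. In RNA of sorted cells in bulk, fewer cells that express a gene and less RNA per cell cannot be told apart.

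**Figure D1:**
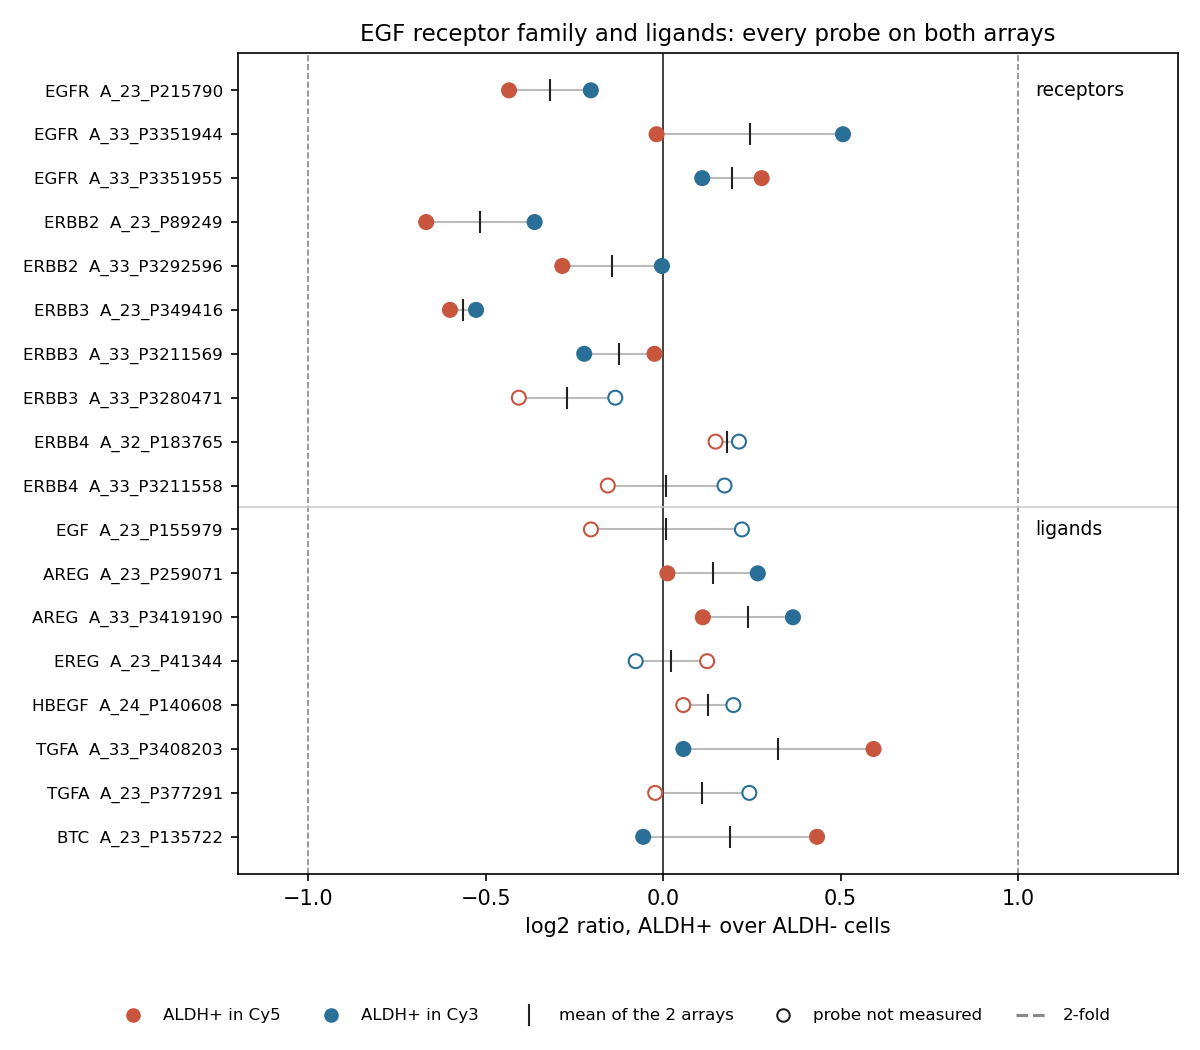
Log2 ratio of ALDH+ over ALDH- cells (x axis) for each of the 18 probes (y axis), with 1 point for each array, colored by the dye of ALDH+ cells, and a tick at the mean. Open points are probes that were not measured, dashed lines mark 2-fold, and the 3′-end probes of EGFR, ERBB2 and ERBB3 lie left of 0 on both arrays.

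ERBB3, which pairs with ERBB2, was lower in ALDH+ cells. Its 3′-end probe had an uncorrected signal of 3578 in ALDH+ cells and 4685 in ALDH- cells when each was labeled with Cy5, and of 1919 and 2496 when labeled with Cy3. ALDH+ cells had the lower signal in either dye. Here and below, the signals compared within a dye come from different arrays and are not normalized. The ratios were formed from the same signals, so this comparison adds no separate support. After normalization the log2 ratio was -0.60 on the first array and -0.53 on the second, a mean of -0.56 ± 0.052 (SD, n = 2 arrays) or 1.48-fold lower. The technical SD of all measured genes had a median of 0.11, below which ERBB3 lay, whereas the other 5 measured members lay above it, from 0.16 for EGFR to 0.38 for TGFA. Of all measured genes, 5.07% had a mean as low. The probe of the short isoform was closer to 0, at -0.02 and -0.22 on the arrays. A further ERBB3 probe, within the code for the extracellular region, was well above background only in the Cy5 channel of each array and was not counted as measured. Its ratios were -0.41 and -0.13. Nothing is read from these. Both measured ERBB3 probes lay below 0 on both arrays, and the sizes of their ratios differed. With the mean of both measured probes in place of the brightest, ERBB3 was at -0.34.

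ERBB2, the receptor without a ligand of its own, was 1.43-fold lower in ALDH+ cells. The uncorrected signal of its 3′-end probe was 8539 in ALDH+ and 9721 in ALDH- cells in Cy5, and 4404 and 5507 in Cy3, again lower in ALDH+ cells in either dye. The log2 ratio was -0.67 and -0.36 on the arrays, with a mean of -0.52 ± 0.22 (SD, n = 2 arrays), and 6.22% of measured genes were as low. This probe was printed in 10 spots on each array. The ratios of the spots ran from -0.72 to -0.61 on the first array and from -0.40 to -0.25 on the second. No spot of either array reached 0, and the 2 arrays did not overlap. The spread between arrays was thus wider than that between spots of an array, which had an SD of 0.034 and 0.042. The other ERBB2 probe (A_33_P3292596, chr17:37851136-37851195), designed from another transcript record, gave -0.28 and -0.0035. With each array centered on its median in place of loess, ERBB2 was at -0.25, against -0.52 after loess, and the mean of both probes was -0.33.

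EGFR, the receptor of all 6 ligands studied here, gave a result that depended on the probe. At its 3′ end the uncorrected signal was 629 in ALDH+ and 713 in ALDH- cells in Cy5, and 437 and 532 in Cy3. The log2 ratio was -0.43 and -0.20, with a mean of -0.32 ± 0.16 (SD, n = 2 arrays) or 1.25-fold lower, and 14.8% of measured genes were as low. All 10 spots of this probe were below 0 on each array, from -0.50 to -0.32 and from -0.26 to -0.10. The probe of the short isoform was at -0.02 and 0.51, and the probe in the extracellular region at 0.28 and 0.11. Both had a mean above 0, at 0.24 and 0.19. The extracellular probe was dim: its Cy5 signals were 104.0 in ALDH+ and 105.0 in ALDH- cells, against a median of 45.1 and 43.1 over the negative control spots, and in Cy3 ALDH- cells were not well above background. The mean over all 3 EGFR probes, designed from different transcript records, was 0.04, so the direction for EGFR rests on its brightest probe.

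**Figure D2:**
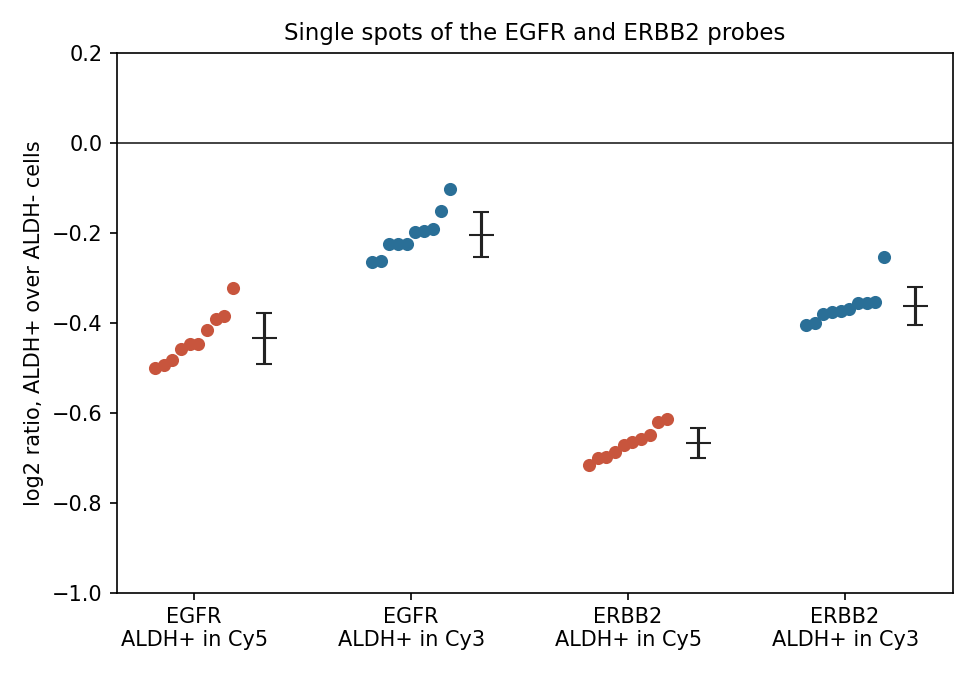
Log2 ratio of ALDH+ over ALDH- cells (y axis) for each of the 10 spots of the EGFR and ERBB2 3′-end probes on each array, sorted by value, with the mean and SD over spots to the right of each set. All spots lie below 0, and the sets of the 2 arrays are apart for each gene (ERBB2 from -0.72 to -0.61 and from -0.40 to -0.25).

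ERBB4, a neuregulin receptor, was not well above background in either population on either array with either of its 2 probes. The signals of its 3′ probe were 63.1 in ALDH+ and 47.5 in ALDH- cells in Cy5, and 144.8 and 146.8 in Cy3. Of these 4 signals, 1 was above the 95th percentile of the negative control spots of its array and dye, and for the other ERBB4 probe none was. ERBB4 was therefore not detectable on these arrays, and nothing is read from its ratios.

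Among the ligands, AREG (amphiregulin), a low-affinity ligand of EGFR, had 2 probes well above background in both populations. The uncorrected signal of the brighter probe (A_23_P259071) was 5301 in ALDH+ and 3881 in ALDH- cells in Cy5, and 2738 and 2362 in Cy3. ALDH+ cells thus had the higher signal in either dye. The log2 ratio was 0.01 and 0.27, with a mean of 0.14 ± 0.18 (SD, n = 2 arrays), so the difference was smaller than the technical spread. The probe in the tail of the precursor was at 0.11 and 0.37. All 4 values lay above 0, and the 2 probes differed less from each other than the arrays did. With median centering in place of loess, AREG was at 0.34.

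TGFA (transforming growth factor alpha), a high-affinity ligand of EGFR, was read by 1 measured probe. Its signal was 1367 in ALDH+ and 1011 in ALDH- cells in Cy5, and 677 and 530 in Cy3. The log2 ratio was 0.59 on the first array and 0.06 on the second, with a mean of 0.33 ± 0.38 (SD, n = 2 arrays) or 1.25-fold higher, and 7.60% of measured genes were as high. Nearly all of this mean came from the array with ALDH+ cells in Cy5. The other TGFA probe (A_23_P377291), far downstream in the transcript, was not well above background in either population on either array. BTC (betacellulin), which binds EGFR and ERBB4, was at 0.43 and -0.06, with a mean of 0.19 ± 0.35 (SD, n = 2 arrays). ALDH- cells were well above background on only 1 of the arrays for BTC. The sign of BTC thus differed between the arrays. By the log ratio of the array software, BTC had a mean of 0.52.

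EGF, HBEGF and EREG were not measured. HBEGF (heparin-binding EGF-like growth factor) had signals of 83.7 in ALDH+ and 72.9 in ALDH- cells in Cy5, and of 163.6 and 168.3 in Cy3. EGF had signals of 82.2 and 71.8 in Cy5, and of 160.9 and 177.4 in Cy3. Both genes were well above background only in the Cy5 channel of each array, that is, for ALDH+ cells on the first array and for ALDH- cells on the second, so their detection followed the dye and not the population. The negative control spots had medians of 45.1 and 43.1 in Cy5 but of 135.2 and 127.2 in Cy3. All 4 signals of HBEGF and of EGF were above the 95th percentile of the negative control spots of the same array and dye. For EREG (epiregulin), which binds EGFR and ERBB4, none of the 4 signals was.

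**Figure D3:**
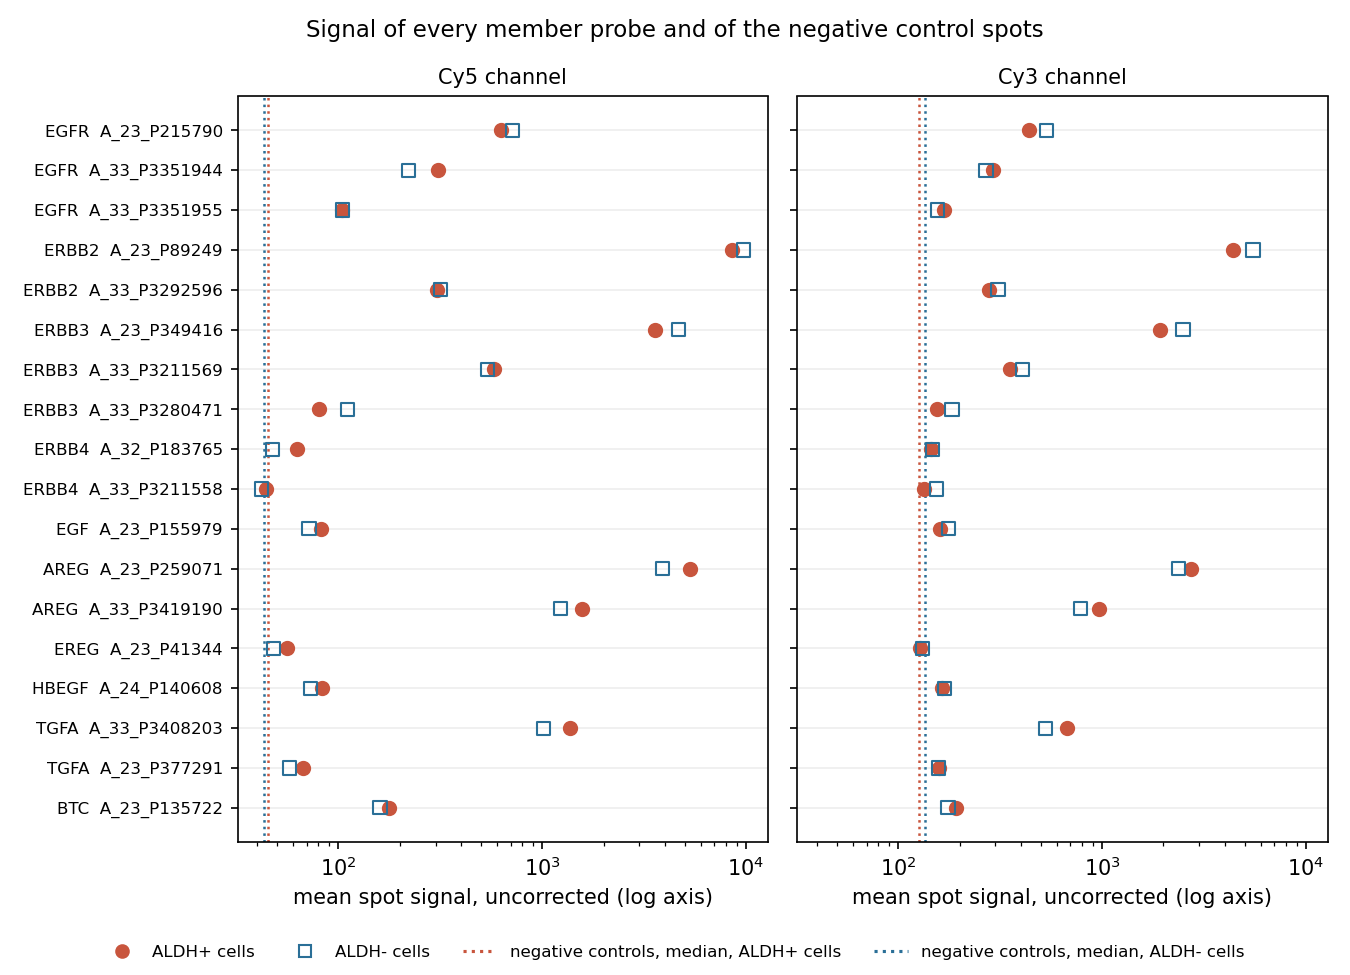
Uncorrected mean spot signal (x axis, log scale) of each of the 18 probes in the Cy5 channel (left) and the Cy3 channel (right), with circles for ALDH+ and squares for ALDH- cells, which come from different arrays within a panel. Dotted lines are the medians of the negative control spots, near 45.1 and 43.1 in Cy5 and 127.2 and 135.2 in Cy3, and the EREG and ERBB4 probes lie close to them.

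Against all measured genes, the brightest probes of the 3 receptors stood on the lower side of the distribution and those of the 3 ligands on the upper side, all between the 2-fold limits. The side of EGFR turned with the mean over its probes (0.04), and BTC was below 0 on the second array (-0.06). Of the 13720 genes, 6934 had a mean below 0 and 6786 a mean above 0, and 4963 were below 0 on both arrays. A value below 0 on both arrays was thus common among all genes and does not mark out the receptors.

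**Figure D4:**
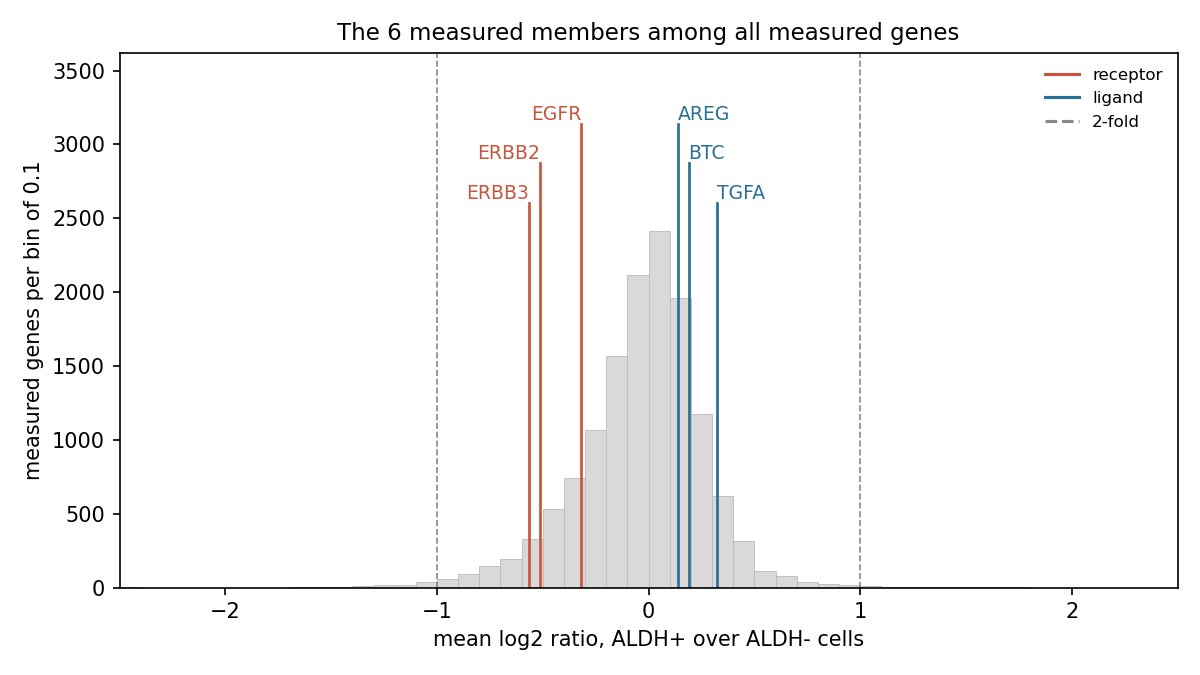
Number of measured genes (y axis) by mean log2 ratio of ALDH+ over ALDH- cells (x axis, bins of 0.1), with lines at the brightest probe of the 6 measured members. ERBB3, ERBB2 and EGFR lie at -0.56, -0.52 and -0.32, AREG, BTC and TGFA at 0.14, 0.19 and 0.33, and dashed lines mark 2-fold.

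Of the genes that act with the family at the cell surface, CD9 had the ratio farthest from 0. The other ligands, EPGN and the neuregulins NRG1, NRG2, NRG3 and NRG4, all had a probe, but 0 of 5 were measured. Of 7 sheddases and their regulators, 6 were measured, none passed 1.5-fold, and their median was -0.11. The 3 farthest from 0 with 1 sign on both arrays were ADAM10, which sheds EGF and betacellulin, at -0.20 and -0.22, ADAM15 at -0.17 and -0.06, and RHBDF2, a partner of ADAM17, at -0.07 and -0.16. ADAM17, which sheds the TGFA, AREG and HBEGF precursors, had opposite signs on the arrays, with 0.01 and -0.24. All 7 chaperones and co-receptors were measured, with a median of 0.11. CD9, a tetraspanin that binds the membrane-bound HBEGF precursor, had log2 ratios of 0.71 and 0.72, or 1.64-fold more in ALDH+ cells, and was the only gene of this list past 1.5-fold. MUC1, a mucin that associates with these receptors, was at 0.45 and 0.15, and the chaperone HSP90AA1 at -0.12 and -0.64.

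Inside the cell, the receptor adaptors and first kinases had a median of -0.09 over 10 measured genes of 13. Of these, 7 were below 0 and 1 above 0 on both arrays, against 4963 and 4608 of all 13720 measured genes. PTPN11 (SHP2), a phosphatase needed for RAS activation by these receptors, was 1.52-fold lower in ALDH+ cells, with -0.67 and -0.53. It was the only gene of the list past 1.5-fold. The docking protein GAB2 was at 0.40 and 0.29, and SOS1, the exchange factor of RAS, at -0.16 and -0.22. In the RAS-ERK cascade 10 of 11 genes were measured, with a median of 0.15. MAP2K2 (MEK2), a kinase of ERK, was 1.59-fold higher in ALDH+ cells, with 0.63 and 0.70, and no other gene of the cascade passed 1.5-fold. HRAS, a RAS protein of the cascade, was at 0.35 and 0.13.

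Inhibitors of the receptors and of ERK had a median of 0.03 over 15 measured genes of 17, and none passed 1.5-fold. The median was -0.02 on the first array and -0.09 on the second. Of the 15 genes, 7 were below 0 and 4 above 0 on both arrays, against 4963 and 4608 of all 13720 measured genes. The list thus had no settled direction. SPRY1, an inhibitor of RAS-ERK signaling, was at 0.37 and 0.51. DUSP5, the phosphatase of nuclear ERK, was at -0.41 and -0.59, and DUSP6, that of cytoplasmic ERK, at 0.06 and 0.53. Of 10 genes known as transcriptional output of the ERK pathway, 9 were measured, with a median of 0.13 (0.06 and 0.20 on the arrays) and with none past 1.5-fold. Those farthest from 0 were PHLDA1 at 0.29 and 0.36, CCND1 (cyclin D1) at 0.39 and 0.26, and DUSP6. DUSP6 and further SPRY and DUSP genes stand in both lists, so the medians of these lists are not independent. No gene of any of these lists passed 2-fold.

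**Figure D5:**
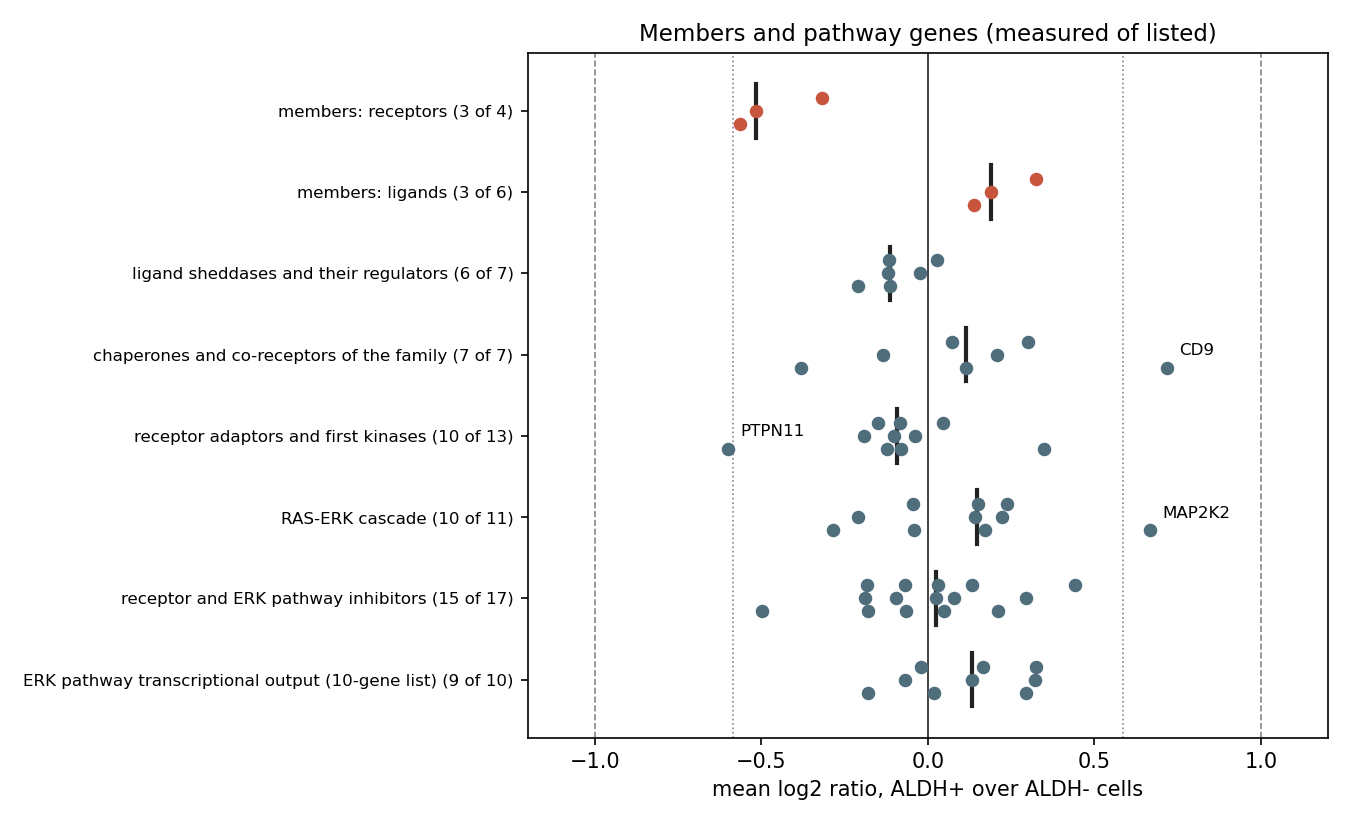
Mean log2 ratio of ALDH+ over ALDH- cells (x axis) for each measured gene of the 8 lists (y axis, with the number measured of those listed), and the median of each list as a bar. Dotted lines mark 1.5-fold, dashed lines 2-fold, and CD9 and MAP2K2 at the right and PTPN11 at the left are past 1.5-fold.

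Markers of the labeled cell type were present. All 6 epithelial markers were measured (median 0.02), as were PAX8 and NAPSA, markers of Mullerian and clear cell carcinoma, of which PAX8 was 1.67-fold lower in ALDH+ cells. Of 7 leukocyte markers, 3 were measured, namely PTPRC, CD3D and CD14, with log2 ratios of -0.12 and 0.19, -0.33 and 0.04, and 0.32 and 0.58. Of 6 fibroblast markers 0 were measured. Whether these differences have a part in the ratios of the receptors was not tested. On the 2 arrays, 21697 to 27979 of 43118 spots were well above background in a channel, none was saturated, and across genes, which are no independent replicates, the arrays correlated with a Pearson's r of 0.69.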

How the data were processed

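The data were from 2 two-color arrays of ALDH+ and ALDH- RMG1 cells with the dyes exchanged, which counted as 1 replicate. The authors deposited the intensity and local background of every spot (Feature Extraction 10.7.3.1 per the file headers, 8.5.1.1 per the labels), with no normalization, and the software's log10 ratio, for which it subtracts background and normalizes the dyes. A deposited table joins these log10 ratios, and 4 further signal columns in it were not used.

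Here mean signals were corrected with normexp (offset 50) and normalized by loess in each array (R 4.3.3, limma 3.58.1). Control spots were left out, as were outlier spots (531 on the first array and 519 on the second). Spots were averaged and log2 ratios turned to ALDH+ over ALDH- cells (Python 3.11.15, numpy 2.4.6, pandas 2.3.3, matplotlib 3.10.9). A probe was measured when over 50% of its spots were well above background on each array for ALDH+ or for ALDH- cells (16682 of 34127 probes). The brightest measured probe stood for a gene. RefSeq names (GRCh38.p14) matched 25422 probes and changed no member. Outside the members, the text names the 3 genes of each list with the mean farthest from 0 and 1 sign on both arrays, and others chosen after their values were seen: ADAM17 and the markers with values. A gene that this rule names and a marker are not reported here. Members and lists were chosen with earlier results of these data known. The comparison with the negative control spots was also added after seeing the values. The number of arrays limits the precision. Steps were tested on simulated data.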

Additional observations from a re-analysis of the deposited data

How the results depend on the processing

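No member passed 2-fold under any of the alternatives run, which were 4 other background corrections, median centering, the array software's log ratio, the joined log ratios, single arrays, 2 other filters, the mean over probes, a threshold of 1.5-fold and 2-fold on each array. The median of the members was -0.21 on the first array alone, -0.32 when both populations had to be well above background on each array (5 genes), 0.075 with no filter on dim probes (10 genes) and 0.11 with the mean over all measured probes. Its sign thus depended on the probes used. Values of single members moved by more than the technical SD with median centering for ERBB2 (-0.25), ERBB3 (-0.38) and AREG (0.34), and with the mean over probes for EGFR (0.04) and ERBB3 (-0.34). The sign changed for EGFR with the mean over probes, for BTC on the second array alone (-0.06), and for the median of the inhibitor list on each array alone (-0.02 and -0.09). EGFR lay between -0.43 and 0.04, ERBB2 between -0.67 and -0.25, ERBB3 between -0.60 and -0.34, AREG between 0.01 and 0.34, TGFA between 0.06 and 0.59 and BTC between -0.06 and 0.52. Of 96 list medians under these alternatives, 12 moved by more than the SD of the list's medians on the 2 arrays. The sheddase median lay between -0.13 and -0.04, that of the RAS-ERK cascade between 0.09 and 0.24, and that of the chaperones and co-receptors between 0.06 and 0.27. The cause of these shifts was not tested. Median centering left all genes at a median of 0.07. The offset compresses ratios of dim probes. No paired analysis was possible because the 2 arrays carry the same pair of extracts and no result comes from a test.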
